A study of Mus musculus with 8 samples.

Results

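The cells described here were 339 barcodes, 24 from WT and 315 from KO, rich in transcripts of Ada, Slc28a2, Clca4a and 2010109I03Rik. They were chosen by the values of these 4 genes: a barcode entered when the genes together gave 3 or more unique molecular identifiers (UMIs, each 1 counted RNA molecule) and at least 0.2% of its UMIs. The barcode also had to hold 500 or more UMIs and 200 or more genes, at most 30% of UMIs from mitochondrial transcripts and less than 20% from Defa genes, the defensins of Paneth cells. Of 28750 deposited barcodes, 14917 met these other limits (8202 WT and 6715 KO) and are called kept barcodes below.

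The libraries came from small intestinal crypts of adult mice on a C57BL/6 background, released with EDTA and sorted for EpCAM, an epithelial surface protein. The study describes the mice of its single-cell sequencing as female in both genotypes. KO mice lacked ieCtnnb1, an intestinal enhancer of Ctnnb1, in all cells (Ctnnb1 Δi.enh). The mice labelled WT were, by the study's methods, H11 i.enh animals, which carry a reporter cassette driven by that enhancer, so the controls were not unmodified. The labels list 4 samples of each genotype, but cells of several mice were pooled and each genotype has 1 matrix. There was therefore no replicate, no test could be made between WT and KO, and every interval below is an exact 95% interval for counting error only.

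Enterocytes are born in the crypt, move up the villus within days and are shed at its tip. On the way their program changes in zones: antimicrobial genes such as Reg3b and Reg1 are used near the villus base, nutrient transporters and digestive enzymes in the middle, and near the tip genes of purine breakdown, apolipoprotein A-IV and AP-1 factors. Ada encodes adenosine deaminase, which converts adenosine to inosine, and Slc28a2 a sodium-coupled transporter that takes up purine nucleosides. Clca4a belongs to the calcium-activated chloride channel regulator family, and 2010109I03Rik is given in these data under its clone name.

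In the GRCm38 annotation Ada lies at chr2:163726584-163750239 on the minus strand and Slc28a2 at chr2:122426477-122461137 on the plus strand. Clca4a lies at chr3:144952480-144975045 and its neighbour Clca4b at chr3:144910921-144932529, both on the minus strand. The strand setting of the counting was not given in the sources used here, and reads shared by these close relatives could be split between them. 2010109I03Rik lies at chr15:74876987-74897021 on the minus strand.

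Of the 4 genes, Ada and Slc28a2 were matched in a RefSeq table of promoters (GRCm38.p6). The 250 bases before each start, 5′ to 3′ on the strand of the gene, are shown because these are the purine genes of the rule. Capitals mark the CACCC box, the letters CACCC searched on both strands, which is the kind of site that Krüppel-like factors such as Klf4 can bind.
Ada, chr2:163750240-163750489, minus strand: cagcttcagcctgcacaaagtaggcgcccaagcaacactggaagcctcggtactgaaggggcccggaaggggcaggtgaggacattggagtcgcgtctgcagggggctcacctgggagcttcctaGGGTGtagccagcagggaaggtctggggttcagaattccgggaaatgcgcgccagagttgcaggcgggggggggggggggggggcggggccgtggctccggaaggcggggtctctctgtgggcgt
Slc28a2, chr2:122426185-122426434, plus strand: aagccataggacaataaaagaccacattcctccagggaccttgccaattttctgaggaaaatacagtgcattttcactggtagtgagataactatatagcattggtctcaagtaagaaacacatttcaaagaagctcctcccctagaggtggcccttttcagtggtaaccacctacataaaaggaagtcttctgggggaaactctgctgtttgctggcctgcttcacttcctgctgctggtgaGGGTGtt
Each window held 1 CACCC match, in the reverse orientation, beginning at position -125 for Ada and -7 for Slc28a2. This short motif was held by 52.0% of all 32851 promoters listed there, so its presence is a description and no sign of a site. The letters of an AP-1 site (TGANTCA, in 6.75% of promoters), an HNF4 site (CAAAGTCCA, in 0.384%) and a TATA box (TATAAA, in 12.4%) were not in these windows on either strand.

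Members made up 4.69% of kept KO barcodes (4.20 to 5.22%) and 0.293% of kept WT barcodes (0.188 to 0.435%), a log2 ratio of 4.0 (3.40 to 4.67). With members and reference enterocytes together as the denominator, they were 23.5% in KO and 2.67% in WT, where reference enterocytes are the other kept barcodes with 3% or more of UMIs from 8 enterocyte genes, among them Fabp1, Fabp2, Apoa1, Apoa4, Apoc3, Rbp2 and Sis (875 in WT and 1025 in KO). Leaving out barcodes rich in markers of other lineages kept 46 members in KO and 1 in WT. Both matrices have unequal shares of shallow barcodes, and the share of members depended on depth in each. In KO they were 9.73% of barcodes with 500 to under 1000 UMIs, 14.5% of those with 1000 to under 2000 and 1.58% of those with 2000 or more, against 1.11%, 0.924% and 0.0940% in WT. The KO share was above the WT share within each of these classes, by 3.13, 3.97 and 4.07 on the log2 scale. These shares are what the rule measured, so they describe the matrices and carry no test.

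**Figure D1:**
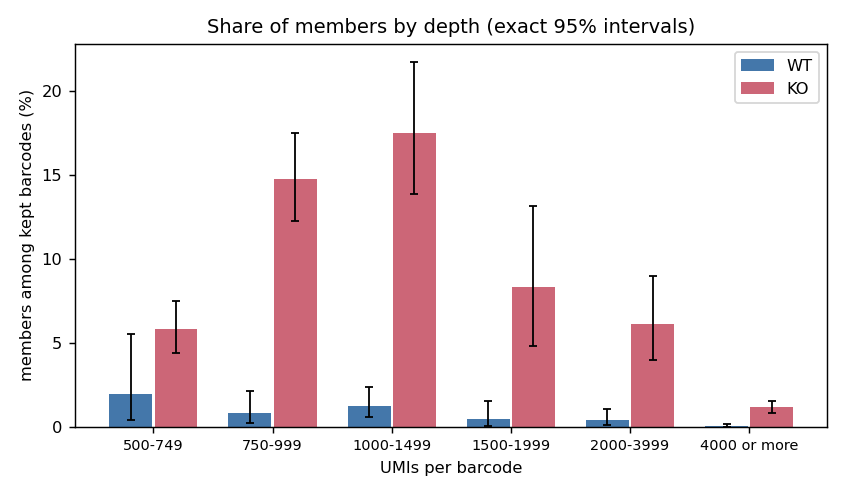
Members as a percentage of kept barcodes, by UMIs per barcode, for WT (blue) and KO (red) with exact 95% intervals as bars. The highest KO share was 17.5% at 1000 to under 1500 UMIs and the lowest 1.15% at 4000 or more, while no WT class exceeded 1.92%.

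The members were shallow. Their median was 981 UMIs in KO (577 to 15192) and 1237 in WT (599 to 4509), against 8622 and 5793 for all kept barcodes. In KO, 71 members with 2000 or more UMIs, called deep members below, held 390798 of the 626038 member UMIs, so summed values are mostly theirs. The other 244 carried much RNA of secretory cells: Lyz1 and Defa transcripts took a median of 16.1% of their UMIs, close to the 18.1% of other kept KO barcodes of that depth, and 3.43% in the deep members. Reference enterocyte genes took 2.89% in the shallow members and 1.0% in other shallow barcodes, but 12.0% in deep members and 8.59% in deep reference enterocytes. Across all KO members Lyz1 and Defa exceeded 5% of UMIs in 267 of 315, and goblet markers exceeded 1% in 131 and 10% in 2. The 9 stromal, endothelial and red cell markers had no UMI in KO members, and in the comparison with reference enterocytes no gene of the tuft and immune lists reached the count limit. Of the 57 barcodes that occur in both matrices, 1 was a KO member and 0 were WT members. No doublet caller was run here, and the part of free RNA or of doublets in these values was not tested.

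**Figure D2:**
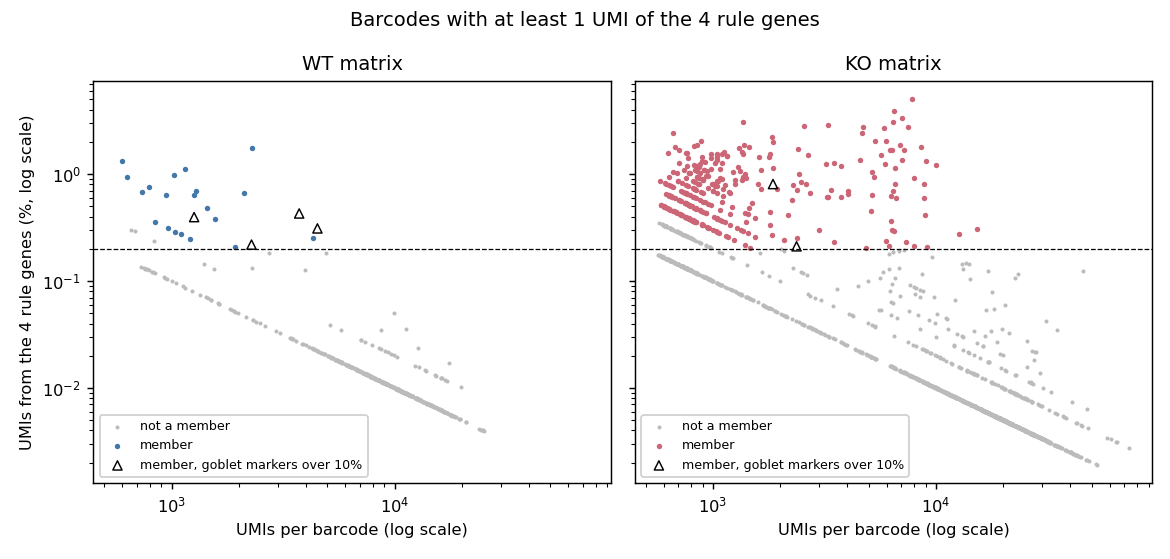
Share of UMIs from the 4 genes against UMIs per barcode, both on log scales, for kept barcodes with at least 1 UMI of these genes (434 in WT, 1501 in KO). The dashed line is the 0.2% limit. Coloured points are the 24 WT and 315 KO members, triangles the 4 WT and 2 KO members with goblet markers over 10%, and grey points the rest, which run along lines of 1, 2 or more UMIs.

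A class cut from a sum of genes is a range, not a separate type. In KO, 26 members lay just inside the 0.2% limit (under 0.3%) and 28 barcodes with 3 or more UMIs just outside it (0.1% to under 0.2%). The count limit cut a denser place, with 54 members at exactly 3 UMIs and 70 barcodes at 2 UMIs that passed the share limit. In WT the corresponding numbers were 6 and 4, and 5 and 3. Of the KO members, 92 had UMIs of all 4 genes, 117 of 3, 84 of 2 and 22 of 1, and of the WT members 5 had all 4, 5 had 3, 10 had 2 and 4 had 1. These numbers follow in part from the rule, which used the sum of the genes.

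Summed over KO members, Ada stood at 3404 counts per 1000000 UMIs (CPM), Slc28a2 at 842 CPM, Clca4a at 2655 CPM and 2010109I03Rik at 3559 CPM. The reference enterocytes, which the rule kept low in these genes, had 15.2, 3.47, 44.7 and 9.87 CPM in the same order. Among the 71 deep KO members, Clca4a had a UMI in 69, 2010109I03Rik in 62, Ada in 55 and Slc28a2 in 31. Per cell, Ada ran from 0 through a median of 1652 to 17244 CPM and 2010109I03Rik from 0 through 2948 to 28399 CPM, so members differed widely in the genes that chose them. Tuft cells, which should lack these genes, gave 0 members of 42 in KO and 0 of 105 in WT, and the 4 genes together stood at 16.5 and 14.1 CPM there. Counts of 0 in so few cells allow up to 8.41% in KO and 3.45% in WT. Both limits lie above the member shares of all kept barcodes, 4.69% and 0.293%, so these counts cannot show a lower share in tuft cells.

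In KO, genes outside the rule that mark the villus tip were higher in members than in reference enterocytes without exception: 8 of 8 measured list genes were at least 2-fold higher (median log2 ratio 1.80). A gene was measured when it had 50 or more UMIs in both groups together. Of all 6951 genes measured, 9.96% were at least 2-fold higher and 25.4% at least 2-fold lower, with a median of -0.38. Nt5e, the surface enzyme that makes adenosine from AMP, stood at 182 CPM in members (150 to 219) and 0.934 CPM in reference enterocytes (0.376 to 1.92), a log2 ratio of 7.61 (6.52 to 8.95). Enpp3, an ectonucleotidase, was at 163 against 9.34 CPM, a log2 ratio of 4.12. Klf4, a factor of terminal epithelial differentiation, was at 465 against 80.1 CPM, and Krt20, a keratin of differentiated enterocytes, at 3725 against 1056 CPM. Apoa4, an apolipoprotein of chylomicrons and itself one of the genes that chose the reference, was at 8464 against 2502 CPM. Egfr, the ninth list gene, had too few UMIs to be measured, with 31.9 and 2.40 CPM. Creb3l3, a factor of lipid metabolism, was at 679 against 249 CPM.

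With barcodes of 2000 or more UMIs on both sides, a comparison added after the data were seen, the same 8 genes were at least 2-fold higher and their median was 2.18 (9.73% of 6761 genes were at least 2-fold higher and 28.3% lower). Nt5e had a log2 ratio of 7.51, Enpp3 of 4.58, Klf4 of 2.83, Krt20 of 2.27 and Apoa4 of 2.09. Members under 2000 UMIs were set against all other kept KO barcodes of that depth, where 10.4% of 3511 genes were at least 2-fold higher and 13.1% lower. There 6 of 7 measured tip genes were at least 2-fold higher, among them Nt5e with a log2 ratio of 6.12 and Apoa4 with 3.24, whereas Fos, at 166 against 150 CPM, was not. Against reference enterocytes of the same shallow depth the median was smaller, 0.94.

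**Figure D3:**
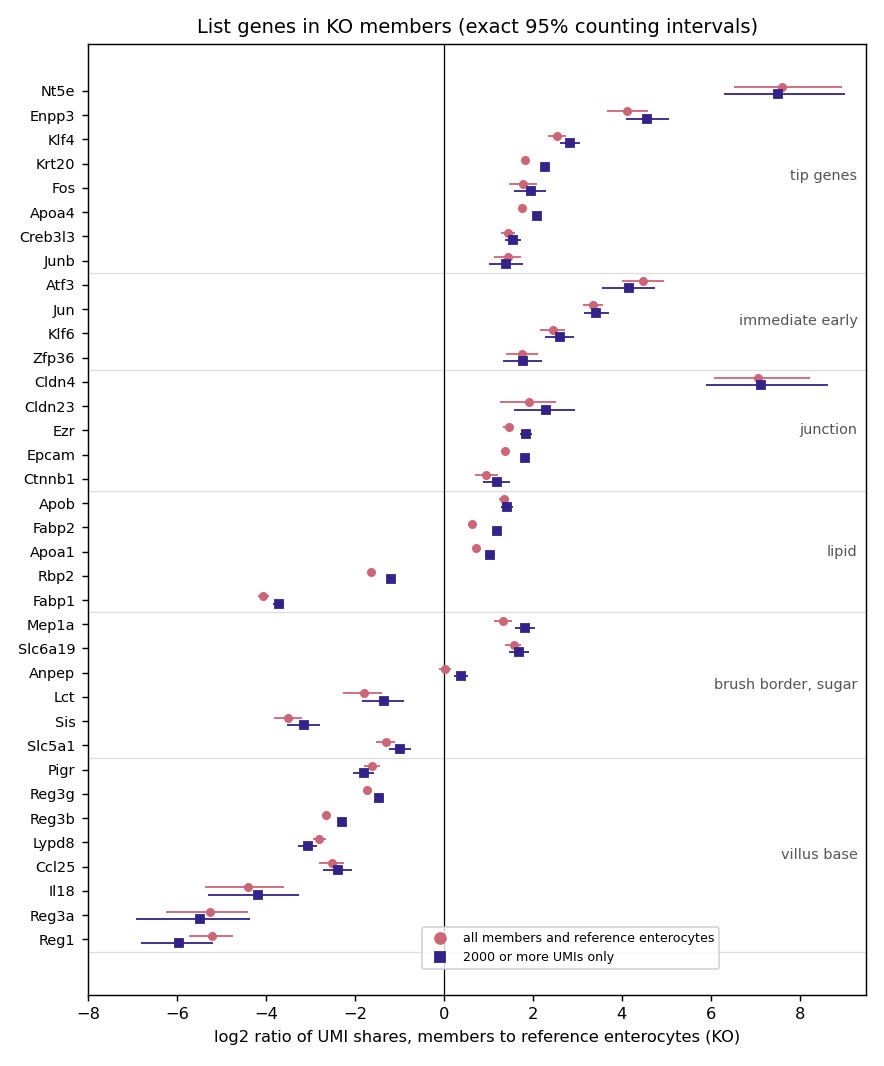
Log2 ratio of UMI shares, KO members to KO reference enterocytes, for genes from 6 gene lists. Red circles are all barcodes and blue squares those with 2000 or more UMIs, with exact 95% counting intervals. The tip genes lie right of 0, from 1.44 for Junb to 7.61 for Nt5e, and the villus base genes left of 0, from -1.62 for Pigr to -5.25 for Reg3a.

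To read single cells at equal depth, each barcode was thinned to 1500 UMIs, which left out 228 KO members as too shallow and kept 87. Nt5e had a UMI in 17.2% of these members, in 0.251% of 796 reference enterocytes and in 0% of 39 tuft cells, where a count of 0 allows up to 9.03%. Without thinning the values were 18.7%, 0.683% and 0%. Krt20 had a UMI in 95.4% of members, 74.0% of reference enterocytes and 7.69% of tuft cells. Klf4 had one in 40.2%, 11.4% and 10.3%, so its share in the reference was at the level of the tuft cells. Fabp1 had one in 36.8% of members, 84.4% of reference enterocytes and 53.8% of tuft cells, so its share in members was not above that of the tuft cells. Whether the tuft values reflect free RNA was not tested. The tuft cells had a median of 5190 UMIs, the members 981 and the reference enterocytes 7833.

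Cell by cell, the deep KO members overlapped the 775 deep KO reference enterocytes in each of the genes that follow. Krt20 ran from 0 through a median of 4411 to 11437 CPM in members and from 0 through 914 to 5716 CPM in the reference, so the median member was far above the median reference cell while the ranges overlapped. Apoa4 ran from 0 through 1853 to 78210 CPM in members and from 0 through 1440 to 43220 CPM in the reference, medians closer to each other than the summed levels. Nt5e had a UMI in 18 of 71 members and in 6 of 775 reference cells, with highest values of 3113 and 359 CPM. Reg3b ran from 0 through 1853 to 56269 CPM in members and from 0 through 15319 to 156850 CPM in the reference.

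The villus base and antimicrobial genes were lower in KO members: 9 of 9 were at least 2-fold lower, with a median log2 ratio of -2.66. Reg3b, an antibacterial lectin, stood at 5086 against 32035 CPM, and its relative Reg1 at 57.5 against 2144 CPM. Reg3a was at 17.6 against 667 CPM. Il18, a cytokine released by enterocytes, was at 19.2 against 407 CPM, and Lypd8, a secreted protein that keeps flagellated bacteria off the epithelium, at 599 against 4161 CPM. Pigr, the carrier of IgA, was at 442 against 1356 CPM. In deep barcodes 9 of 9 were again at least 2-fold lower (median -2.38). Among shallow barcodes 2 of 9 were, with a median of -0.76.

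Genes of nutrient uptake did not move as a block. Of 11 sugar and amino acid transporters 6 were at least 2-fold lower and 2 higher (median -1.31). Slc2a2, the basolateral glucose carrier, had 3.19 against 154 CPM, and Slc5a1, the apical sodium-glucose carrier, 275 against 681 CPM. Slc6a19 and Slc3a1, which serve uptake of neutral and of dibasic amino acids, were higher, at 505 against 171 CPM and 270 against 117 CPM. Of 16 brush border enzymes 3 were higher and 4 lower, the latter near the share over all genes. Among all 6951 genes measured in this comparison, 9.96% were at least 2-fold higher and 25.4% lower. These shares also apply to the other lists compared over all KO barcodes. Mep1a, a metalloprotease, was at 363 against 144 CPM and intestinal alkaline phosphatase (Alpi) at 288 against 142 CPM, while sucrase-isomaltase (Sis) was at 129 against 1460 CPM and lactase (Lct) at 73.5 against 257 CPM. Sis helped to choose the reference enterocytes.

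Lipid genes also went both ways, 5 of 20 at least 2-fold higher and 6 lower (median 0.02), beside 9.96% higher and 25.4% lower among all genes. Apob, the scaffold of chylomicrons, stood at 1275 against 502 CPM, Npc1l1, which takes up cholesterol, at 602 against 229 CPM, and the fatty acid carrier Slc27a4 at 666 against 252 CPM. On the other side, the fatty acid binding protein Fabp1 was at 933 against 15514 CPM and Mttp, which loads lipid onto Apob, at 193 against 555 CPM. Fabp2, the other abundant fatty acid binding protein, was at 44828 against 29031 CPM. Fabp1, Fabp2 and Apoa4 were among the genes that chose the reference, and the first was far lower in members while the others were higher. In the shallow comparison, whose reference was not chosen by these genes, Fabp1 had a log2 ratio of -0.97, Fabp2 of 1.09 and Apob of 2.56.

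Of 9 measured purine and nucleoside genes outside the rule, Nt5e and Enpp3 were at least 2-fold higher and Slc28a1 and Adk at least 2-fold lower. Slc28a1, the pyrimidine relative of Slc28a2, stood at 3.19 against 23.4 CPM and adenosine kinase (Adk) at 17.6 against 43.0 CPM. Further along purine breakdown, Pnp, Xdh and Gda were at 313, 125 and 265 CPM in members and 381, 135 and 505 CPM in reference enterocytes. In the sums, the later enzymes were thus within 2-fold of the reference, while Nt5e was far above it and Ada and Slc28a2 were high by the rule. Single barcodes need not hold these together, since Nt5e had a UMI in 18 and Slc28a2 in 31 of the 71 deep members.

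Immediate early genes, which code for short-lived factors switched on by growth signals or stress, were higher as a group, 10 of 12 at least 2-fold (median 1.74). Atf3, a stress-induced factor, stood at 177 against 8.01 CPM, Jun at 474 against 46.7 CPM, Klf6 at 244 against 45.0 CPM and Zfp36, which destabilises cytokine mRNAs, at 134 against 39.6 CPM. In deep barcodes 7 of 10 were at least 2-fold higher and 1 lower. Egr1, which was not the gene counted as lower, stayed within 2-fold there, at 7.68 against 12.0 CPM, unlike its log2 ratio of 1.03 over all barcodes. RNA quality genes moved with them: Malat1, a nuclear RNA, took 33653 CPM in members and 4743 CPM in reference enterocytes, and 11720 against 4079 CPM in deep barcodes. Mitochondrial transcripts took 9.98% of member UMIs and 9.54% of reference UMIs. Whether RNA quality had a part in the immediate early values was not tested.

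Junction and cytoskeleton genes were higher, 10 of 18 at least 2-fold and 0 lower (median 1.23). Cldn4, a tight junction claudin, stood at 160 CPM (130 to 194) against 1.20 CPM (0.549 to 2.28), a log2 ratio of 7.06, and in deep barcodes at 115 against 0.826 CPM. Epcam was at 4818 against 1861 CPM and ezrin (Ezr), which links microvilli to actin, at 1006 against 366 CPM. Cldn15, a claudin of sodium-permeable junctions, was at 165 against 327 CPM. Ctnnb1, the gene whose enhancer the KO mice lacked, was at 228 CPM (193 to 269) in KO members against 118 CPM (110 to 126) in KO reference enterocytes. KO and WT members had 228 and 230 CPM of Ctnnb1, the latter from few cells with an interval of 105 to 437.

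Of 16 measured enterocyte transcription factors 6 were at least 2-fold higher and 1 lower. Besides Klf4 and Creb3l3, Hnf4a, a master factor of enterocyte genes, stood at 233 against 79.1 CPM, while its relative Hnf4g was at 25.6 against 76.6 CPM. Prdm1, a repressor that holds back adult enterocyte genes before weaning, was at 52.7 against 2.80 CPM. Of 4 measured targets of bone morphogenetic protein signalling, which is strong at the villus tip, Smad7 was at least 2-fold higher, at 105 against 18.8 CPM. Crypt stem and cycling genes had 0 of 10 called in either direction, and of 5 measured Wnt targets 0 were higher and 1, Sp5, lower, with 0 UMIs in members and 11.7 CPM in reference enterocytes. Of 12 cell death and p53 genes 2 were higher and 5 lower, with Casp8 at 163 against 71.3 CPM and Casp1 at 46.3 against 205 CPM.

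Of 7 measured ileal bile acid and cobalamin genes, Slc10a2 and Fgf15 were at least 2-fold higher and Cubn lower. Of 5 proximal iron, calcium and vitamin A genes Rbp2, which helped to choose the reference, and Adh1 were at least 2-fold lower. Of 3 measured immature enterocyte genes 1, Apol10a, was at least 2-fold lower. Of 11 major histocompatibility genes 0 were at least 2-fold higher and 2 lower, and of 5 measured Clca and Ly6 family genes outside the rule 0 were higher and 1, Lypd8, lower. Clca4b was at 957 against 487 CPM. All 6 measured Paneth markers were at least 2-fold higher over all barcodes (median 1.46), 1 of 6 in deep barcodes (median 0.54) and 0 of 6 in shallow barcodes (median -0.18). Goblet markers were higher in 2 of 7, among them Muc2 at 564 against 254 CPM. Of 3 measured enteroendocrine markers 2 were higher and 1 lower.

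Outside these lists, the 15 genes with the largest ratios of KO members to reference enterocytes ranged from log2 6.23 to 3.65. They included 2010107G12Rik at 200 against 2.67 CPM, the calcium-binding protein S100a6 at 1795 against 75.7 CPM, and Duox2 and its maturation factor Duoxa2, which together make hydrogen peroxide at the cell surface, at 371 against 21.5 CPM and 462 against 30.7 CPM. Ifrd1, Pmepa1, a brake on transforming growth factor beta signals, and Ptger4, a prostaglandin E2 receptor, stood at 276, 145 and 86.3 CPM against 14.3, 9.07 and 6.27 CPM. Among the others were Lhfpl2, 4930539E08Rik, Marcksl1, Apol9b, Dedd2, Tm4sf4 and Tmem140. The choice rule asked for the same sign in the 24 WT members, which therefore is no separate evidence.

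The 10 genes with the smallest ratios ranged from log2 -5.62 to -4.49. They held 4 glutathione S-transferases, enzymes that conjugate foreign compounds: Gstm3, Gsta1, Gstm6 and Gsta4, with Gsta1 at 25.6 against 1205 CPM and Gstm3 at 6.39 against 315 CPM. Slc26a3, the apical chloride-bicarbonate exchanger, was at 3.19 against 92.7 CPM, and Maob, which breaks down amines, at 3.19 against 78.2 CPM. Rdh7, 2210407C18Rik, Bche and Ppargc1a completed the set. Most of these ratios rest on few member UMIs, so their order is uncertain. Gstm6, Bche and Ppargc1a had 1 UMI each in members, Slc26a3 and Maob 2 each, Rdh7 3, Gstm3 4 and Gsta4 5. Gsta1 had 16 and 2210407C18Rik 21. The interval for Gstm6 ran from -10.6 to -2.80.

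Among KO enterocytes with 2000 or more UMIs, members and reference together, genes outside the rule were laid out by the share of UMIs from the 4 rule genes, in classes of 649 barcodes with none, 89 with up to 0.05%, 37 up to 0.2%, then 19, 22 and 30 members with up to 0.5%, up to 1% and more. Krt20 stood at 967, 1249, 2621, 3309, 4099 and 7034 CPM in this order, so part of the difference was already present below the limit of the rule. Klf4 ran from 64.0 through 273 in the class just below the limit to 651 CPM. Nt5e stood at 3.49 CPM just below the limit (0.0885 to 19.5) and 8.48 CPM just above it (0.215 to 47.3). Each of these rests on 1 UMI, and the highest class had 285 CPM. Apoa4 behaved otherwise than Krt20 and Klf4, with 2495, 2452 and 19040 CPM in these classes. Reg1 dropped between 2 classes below the limit, from 2390 to 241 CPM, and Fabp1 from 15153 to 2673 CPM. Fabp6, the bile acid binding protein of ileal enterocytes, was highest around the limit, at 27761 CPM below and 32723 CPM above it, and lower at both ends, 8699 and 7313 CPM. The class of 19 barcodes is thin, so its values rest on few cells.

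**Figure D4:**
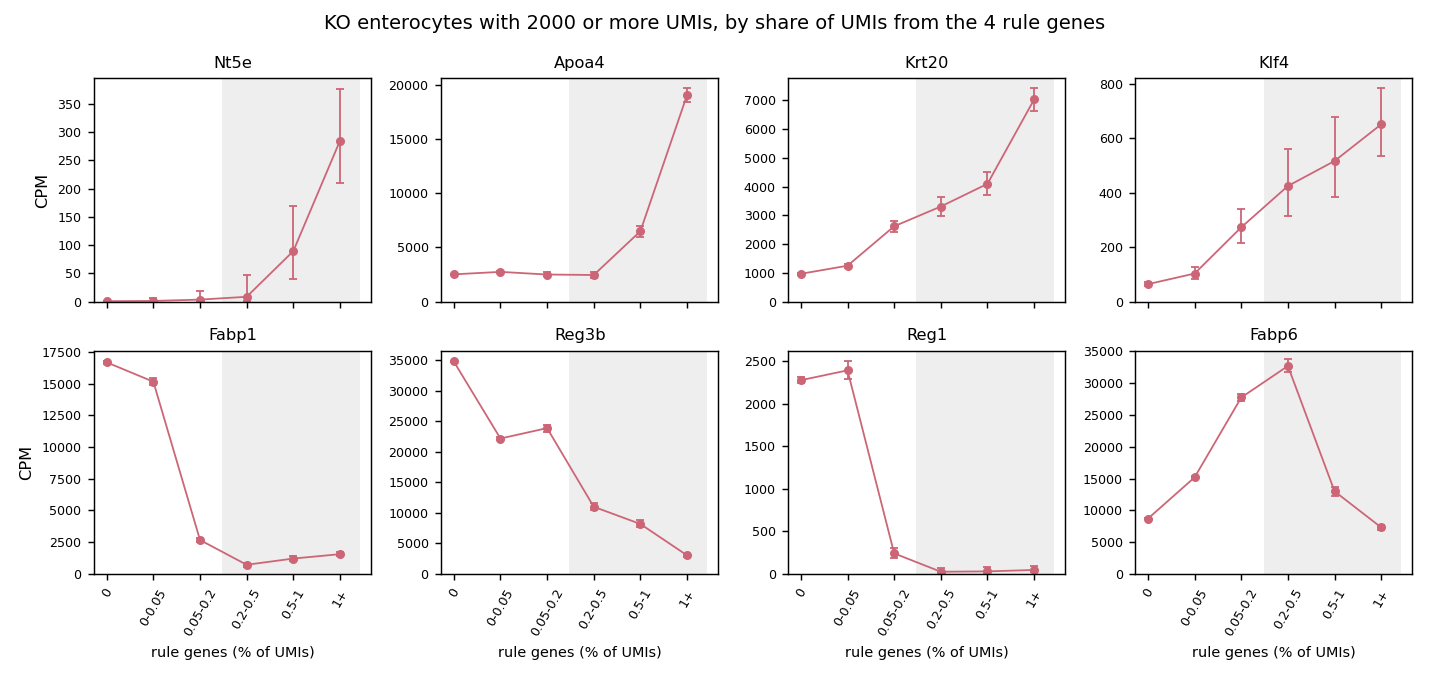
CPM of 8 genes in KO enterocytes with 2000 or more UMIs, by share of UMIs from the 4 rule genes, with exact 95% counting intervals; shaded classes are members (19, 22 and 30 barcodes). Krt20 and Klf4 are higher in each successive class and Apoa4 only in the upper ones. Nt5e rests on 1 UMI in each class next to the limit and reaches 285 CPM in the highest class. Fabp6 peaks at 32723 CPM in the lowest member class.

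The deep KO members fell on both sides of a 0.5% limit on Fabp6: 32 (45.1%) were at or above it and 39 below. Among deep reference enterocytes 156 (20.1%) were at or above it. Nt5e belonged to the members low in Fabp6, at 282 CPM (214 to 364), against 5.41 CPM (0.137 to 30.1) in those high in Fabp6, which rests on 1 UMI. Enpp3 stood at 413 and 5.41 CPM, Apoa4 at 20062 and 497 CPM, and Ada, a rule gene, at 6350 and 1449 CPM. Other genes were close in both: Klf4 at 530 and 568 CPM, Cldn4 at 126 and 103 CPM, S100a6 at 2420 and 2319 CPM, Duoxa2 at 476 and 541 CPM, and Clca4a at 3425 and 3016 CPM.

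Set against reference enterocytes on the same side of that limit, the members high in Fabp6 had 4190 against 1819 CPM of Krt20, 568 against 195 CPM of Klf4 and 497 against 151 CPM of Apoa4. The members low in Fabp6 had 6020 against 910 CPM of Krt20 and 20062 against 3031 CPM of Apoa4. Slc10a2, the ileal bile acid transporter, was at 1027 against 557 CPM on the high side and 48.6 against 5.98 CPM on the low side, and Reg3b at 12601 against 31384 CPM and 1540 against 33218 CPM. Rbp2 was higher in members on the high side, at 2400 against 1882 CPM, and lower on the low side, at 7934 against 14126 CPM. Krt20, Klf4 and Apoa4 were thus higher and Reg3b lower in members on both sides, while the high Nt5e and Enpp3 were seen on the low side. These are values of 1 library, split by a measured gene, with no test.

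**Figure D5:**
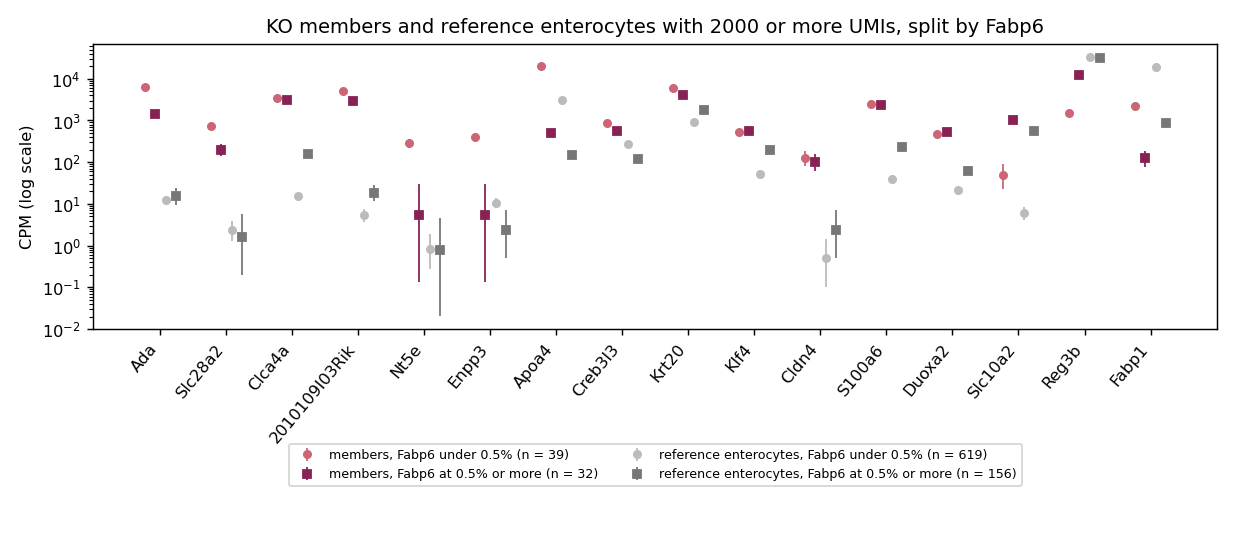
CPM on a log scale of 16 genes in deep KO members (red) and deep KO reference enterocytes (grey), each split at 0.5% of UMIs from Fabp6 (circles below, squares at or above), with exact 95% counting intervals. Nt5e, Enpp3 and Apoa4 differ between the member classes, while Klf4, Cldn4, S100a6 and Duoxa2 lie at like levels in both.

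Summed, the deep KO members met the label of a villus tip enterocyte on the tip list. That list was chosen with earlier results of these data known, so it is no independent support. The 32 of 71 deep members that were high in Fabp6 went against the label in Nt5e and Enpp3, with 1 UMI each. Their Apoa4, at 497 CPM, was below the 2538 CPM of all deep reference enterocytes but above the 151 CPM of those high in Fabp6. The WT data went against the label too. Of 24 WT members 4 had 33.0 to 50.9% of their UMIs from goblet markers (Muc2, Zg16, Fcgbp, Clca1, Tff3, Agr2, Spink4) and together held 30.2% of WT member UMIs. They had 0.0792 to 0.589% of UMIs from reference enterocyte genes, and none had a UMI of Ada or Slc28a2, so they entered through Clca4a and 2010109I03Rik. Among the 6 WT members with 2000 or more UMIs the median share of reference enterocyte genes was 0.554%, against 12.0% in KO. Goblet-rich barcodes were 3 of these 6, and the other 3 had 0.518, 7.07 and 15.8%. In the other 20 WT members, 11 had a UMI of Ada, 10 of Slc28a2 and 1 of Nt5e. Against WT reference enterocytes WT members had 2 of 6 measured tip genes at least 2-fold higher and 1 lower, beside 11.5% higher and 14.8% lower among all 6328 genes measured, and the median was -0.30, or 0.14 without the goblet-rich barcodes. The villus base list was at least 2-fold lower in 7 of 9 (median -2.30). Apoa4 in WT members stood at 1920 CPM, against the 8464 CPM of KO members.

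KO and WT members were compared next, as 2 pooled sets of very unequal size (626038 and 39072 UMIs) that the rule had already aligned on 4 genes. Of 1365 genes measured 31.7% were at least 2-fold higher in KO members and 5.35% lower, a split of 433 to 73 that became 307 to 147 when genes over 1% of UMIs were left out of the denominator. Without barcodes rich in other lineages, which leaves 1 WT member, the split turned to 67 higher and 77 lower and the median of all genes from 0.53 to -0.08, so the balance of the comparison rests on which barcodes are counted. Of 8 measured tip genes 6 were at least 2-fold higher in KO members and 0 lower (median 1.67, or 1.30 without goblet-rich barcodes). Apoa4 stood at 8464 CPM in KO and 1920 CPM in WT, a log2 ratio of 2.14 (1.81 to 2.49), or 1.65 without goblet-rich barcodes. In reference enterocytes it went the other way, with 2502 CPM in KO and 2815 CPM in WT. Krt20 was at 3725 and 1689 CPM in members, with 1056 and 633 CPM in reference enterocytes. Nt5e and Enpp3 had 1 UMI each in WT members, so their ratios, 2.83 and 2.67, have wide intervals, and Klf4, at 465 and 358 CPM, differed by 0.38 (-0.39 to 1.26).

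Among the rule genes, given as a description, Ada was at 3404 CPM in KO members and 921 CPM in WT members, Clca4a at 2655 and 2278 CPM, Slc28a2 at 842 and 537 CPM and 2010109I03Rik at 3559 and 1587 CPM. Reference enterocytes, which all lie below the limits of the rule, also had more of these transcripts in KO: Ada stood at 15.2 CPM in KO and 0.437 CPM in WT, and Clca4a at 44.7 and 3.06 CPM. The share of kept barcodes with any UMI of the 4 genes was 22.4% in KO and 5.29% in WT. Fabp6 differed between the libraries as a whole, at 10390 CPM in KO and 622 CPM in WT reference enterocytes, beside 11977 and 3967 CPM in members. Members with Fabp6 at 0.5% or more were 70 of 315 in KO and 5 of 24 in WT. The part of this ileal gene difference in the member values was not tested.

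Reference enterocyte genes were at least 2-fold higher in KO members for 7 of 8 (median 1.93) and lipid genes for 8 of 16, with Apob lower in KO at 1275 and 2892 CPM. Goblet markers were at least 2-fold lower in KO for 5 of 7 (median -4.50), led by the 4 goblet-rich WT barcodes: without goblet-rich barcodes 2 of 7 were lower and the median was -0.38, beside 30.3% of 1338 genes higher and 7.1% lower. Lypd8 turned with them, from -1.86 to 1.21. Junction genes were at least 2-fold higher in 3 of 14 and immediate early genes in 2 of 7, none lower, and Paneth markers in 0 of 6 either way. Among all 1365 genes of this comparison 31.7% were higher and 5.35% lower, with a median of 0.53. The junction and immediate early medians, 0.11 and 0.55, were not clearly above that level. These shares also apply to the other lists of KO against WT members over all barcodes. Villus base genes were higher in 2 of 5 and lower in 1.

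Of the 20 genes at the ends of this comparison, the 10 highest in KO, from Tm4sf20 at log2 3.88 to Ndufb5 at 2.75, rest on 1 UMI each in WT members. The others were Cgref1, Cideb, Mlf2, Hbegf, 2010003K11Rik, Stk25, Pdcd6 and Pkp3. The 10 lowest included AY036118 and Lars2, with log2 ratios of -5.29 and -3.79, which were also lower in KO reference enterocytes (-4.13 and -2.76) and tuft cells (-5.52 and -2.86), so that they differed between the libraries in other cells too. Saa1, an acute phase protein, was lower in KO members (-1.43) but higher in KO reference enterocytes (5.24), and Ubd, a ubiquitin-like protein induced by inflammation, likewise (-1.15 and 3.69). Xist was at -1.58 in members and at -1.02 and -1.15 in reference enterocytes and tuft cells. Stard10, Pls1, Cxadr and Ahnak ranged from -1.33 to -1.09.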

How the data were processed

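The authors made the count matrices with Cell Ranger, version 4.0.0 per the file headers and 2.1.1 in the submitters' processing notes, which name the mm10 build. The annotation was not given in the sources used here. The deposited values were raw counts (UMIs) of 27998 genes, 1 matrix for each genotype, with no normalization. The study names a doublet caller in a figure legend. No caller was run here. Median depth of kept barcodes was 5793 UMIs in WT and 8622 in KO.

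Barcodes were kept with 500 or more UMIs, 200 or more genes, at most 30% mitochondrial UMIs and under 20% from Defa genes. UMIs were summed over members, over reference enterocytes (3% or more of UMIs from 8 genes, not members) and over tuft cells (5 or more UMIs and 0.2% of UMIs from tuft markers). CPM is the summed count of a gene per 1000000 summed UMIs. Genes with 50 or more UMIs in both sums together were measured, and a ratio of at least 2-fold was counted. A gene with 0 UMIs in 1 group was given as a bound from 3 counts. Intervals were exact at 95% (Poisson for CPM, Clopper-Pearson for shares, conditional binomial for ratios). No p-value was computed, since each genotype has 1 matrix. Thinning to 1500 UMIs drew without replacement with seed 1. Beside 27 gene lists, the genes named were the 15 largest and 10 smallest ratios of members to reference enterocytes in KO and the 10 at each end of KO against WT members, all with 100 or more UMIs and an interval that excludes 0, for the first set also with the same sign in WT. Members, lists and limits were chosen with earlier results of these data known. The scripts were tested on simulated data. Python 3.11.15, numpy 2.4.6, scipy 1.17.1, pandas 2.3.3 and matplotlib 3.10.9 were used. Alternatives were other limits, references, denominators, depth classes and thinning. Some genes that the rules include are not reported here by name.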

Additional observations from a re-analysis of the deposited data

Results flagged for a closer look

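Barcodes over the 30% mitochondrial limit lay outside every comparison, but some met the limits on the 4 genes: 95 of 4105 in KO (2.31%, 1.88 to 2.82%) and 2 of 2746 in WT (0.0728%, 0.00882 to 0.263%). The difference between the libraries is what drew attention to them. The 95 KO barcodes had a median of 1416 UMIs and Nt5e at 183 CPM (120 to 268), against 2.67 CPM in the other 4010 KO barcodes over the limit. Apoa4 stood at 5757 against 796 CPM, Krt20 at 873 against 157 CPM and Cldn4 at 77.4 against 4.72 CPM. Enpp3 was at 35.2 against 6.76 CPM, and Fabp2 less apart, at 4595 against 2362 CPM. The other 4010 barcodes were not chosen as enterocytes, so these values do not set the 95 against enterocytes.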

How the results depend on the processing

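No paired analysis was possible because each genotype has 1 pooled matrix and no result comes from a test. The log2 ratio of the KO to the WT share of members was 4.0 and kept its direction throughout. It was 3.14 with members and reference enterocytes together as the denominator, and members did not have to pass the enterocyte limit. It was 3.13 among barcodes of 500 to under 1000 UMIs (chosen after seeing the data) and 5.78 without barcodes rich in other lineages (46 against 1 cell). In 14 others it lay between 3.90 and 4.66. Of genes at least 2-fold apart between KO members and reference enterocytes, 692 higher and 1769 lower, the counts were 321 and 951 with a minimum of 200 UMIs per gene, 256 and 823 after thinning, and, in alternatives chosen after seeing the data, 57 and 62 with both sides under 2000 UMIs and 365 and 461 for shallow members against other shallow barcodes. These settings measure fewer genes, but the share of lower genes also moved. It was 25.4% in the main setting, 27.3% with 200 UMIs and 31.9% after thinning. In the shallow settings it was smaller, 6.88% and 13.1% in the order above. The share of higher genes was 9.96%, 9.22%, 9.91%, 6.33% and 10.4% in the same order. The median of the tip list, 1.80, was 2.36 with a 1% reference limit, 2.12 with Fabp6 under 0.5%, 1.29 as a mean of CPM per cell and 2.23 without other lineages. It was 2.18, 0.94 and 2.12 in the depth classes added after seeing the data. Of KO against WT members, 433 higher and 73 lower, the higher count was 159 with 200 UMIs, 131 after thinning and 67 without other lineages, where 77 were lower and the median of all genes was -0.08, against 1 WT member. The lower count was 312 with 20 UMIs, 12 with 200 UMIs, 147 without genes over 1% of UMIs in the denominator, 15 after thinning and 35 with Fabp6 under 0.5%. The cause of the moved values was not tested otherwise. That denominator moved the median of all genes in KO members against reference enterocytes from -0.38 to -0.26, and in KO against WT members from 0.53 to 0.22. The balance of higher and lower genes and the median of all genes between KO and WT members thus changed sign without other lineages. The log2 ratio of shares and the tip median kept their sign under the alternatives run. The number of WT members, 24, limits every WT value.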
